A study of Mus musculus with 15 samples.

Results

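The let-7 and miR-98 family was followed in lung small RNA of mice given bleomycin or saline. The members were the 9 mature 5p strands mmu-let-7a-5p, mmu-let-7b-5p, mmu-let-7c-5p, mmu-let-7d-5p, mmu-let-7e-5p, mmu-let-7f-5p, mmu-let-7g-5p, mmu-let-7i-5p and mmu-miR-98-5p, written below without the species prefix and, where no strand is named, for the 5p strand. They were taken by name from a table of 1424 mature miRNAs in 15 libraries. All 9 were present and passed the filter on low values, which kept 818 miRNAs for testing (a count above 5, on the deposited scale, needed in 3 or more libraries). The study asked how R213G, a change in EC-SOD (the superoxide dismutase that cells secrete) that makes the enzyme bind tissue matrix less, bears on lung miRNAs in health and after injury. The groups were WT C57BL/6 mice given phosphate-buffered saline (PBS, 3 libraries), WT mice given bleomycin (4), mice homozygous for R213G EC-SOD on the same background given PBS (4), and R213G mice given bleomycin (4). Each mouse was labelled as 11 weeks old and received 100 uL into the trachea once, with bleomycin at 1 U/mL or without it, and whole lungs, rinsed of blood through the heart, were taken 7 days later. Bleomycin breaks DNA and is used to injure the lung. Both sexes were used, but which library came from which sex was not given in the sources used here. The labels number the samples of a group without saying more of their origin, so p-values measure the spread between these samples.

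MicroRNAs are short RNAs that guide Argonaute proteins to messenger RNAs, mostly through the seed, the bases just after the 5′ end, and lower the output of those messages. The let-7 family was found as a timing switch of development. It is low in embryonic cells, where the Lin28 proteins block the processing of its precursors, and abundant in differentiated tissue such as adult lung, where its known targets include Hmga2, Ras family and Myc messages. In lung fibrosis let-7d has been studied as a repressor of Hmga2 in epithelial cells.

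The sequences are shown because the members differ from each other by only a few bases, which bears on how surely their reads can be told apart. They are the RefSeq mature sequences, 5′ to 3′, with the seed (bases 2 to 8) in capitals. In all, 1199 of the 1424 names in the table matched a RefSeq mature name.

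let-7a-5p: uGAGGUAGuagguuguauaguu
let-7b-5p: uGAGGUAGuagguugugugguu
let-7c-5p: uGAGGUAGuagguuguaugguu
let-7d-5p: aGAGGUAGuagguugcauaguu
let-7e-5p: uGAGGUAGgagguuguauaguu
let-7f-5p: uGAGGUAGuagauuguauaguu
let-7g-5p: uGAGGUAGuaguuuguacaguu
let-7i-5p: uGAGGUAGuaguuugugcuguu
miR-98-5p: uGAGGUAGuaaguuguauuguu

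The seed GAGGUAG is the same in all 9, and each member is 22 bases long, so no length correction is needed between members. How evenly the library preparation captured these sequences was not tested, so an order of abundance here is an order of counts. Counted from 1 at the 5′ end and with let-7a first, let-7c differs by A19G, let-7e by U9G and let-7f by G12A. let-7b differs by A17G and A19G, let-7d by U1A and U16C, let-7g by G12U and U18C, and miR-98 by G11A and A19U. let-7i is the most distant from let-7a, with G12U, A17G, U18C and A19U. Over the 36 pairs the members differ at 1 to 6 positions. The 4 pairs with 1 difference are let-7a with let-7c, let-7e and let-7f, and let-7b with let-7c. The sharing of reads among such pairs was not given in the sources used here. Values of let-7a, let-7b, let-7c, let-7e and let-7f therefore carry an uncertainty that their replicate spread does not show. Other mouse miRNAs with this seed in RefSeq, let-7k and miR-1961, were not analysed here.

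The genes lie on 7 chromosomes in GRCm38.p6 (GENCODE M21 annotation). let-7a-5p (chr13:48538239-48538260, minus strand), let-7f-5p (chr13:48537889-48537910) and let-7d-5p (chr13:48536078-48536099) are read from 3 hairpins in an exon of the long noncoding RNA 6720427I07Rik, with 262 bases between the hairpins of Mirlet7a-1 and Mirlet7f-1 and 1715 between those of Mirlet7f-1 and Mirlet7d. let-7b-5p (chr15:85707325-85707346, plus strand) and a copy of let-7c-5p (chr15:85706616-85706637) lie in an exon of the noncoding Lncppara, 622 bases apart as hairpins. The other let-7c-5p (chr16:77599672-77599693, plus strand) lies in an intron of Mir99ahg, 657 bases from Mir99a. let-7e-5p (chr17:17830366-17830387, plus strand) lies in an intron of Spaca6, 368 bases before Mir125a. The other let-7f-5p (chrX:151912353-151912374, plus strand) and miR-98-5p (chrX:151913229-151913250) lie in an intron of Huwe1 with 786 bases between their hairpins. let-7g-5p (chr9:106178846-106178867, plus strand) is intronic in Wdr82, and let-7i-5p (chr10:122985698-122985719, minus strand) lies in an exon of the transcribed pseudogene D630033A02Rik. The other let-7a hairpin, Mirlet7a-2 (chr9:41536716-41536811), lies 5212 bases after Mir100 and 45115 before Mir125b-1. A mature sequence with several genes is counted once, so its value cannot be divided among them.

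Values are log2 of 1 plus a count that was brought to a common library size, called equalized counts here. Summed over the table they came to between 18087289.8 and 24759615.3 per library, which are not read depths, and PBS libraries tended to have the larger sums (20688471.3 to 24759615.3 in 7 libraries, against 18087289.8 to 21189039.9 in 8 bleomycin libraries). Depth is unknown, and no counting interval can be set. Markers of lung epithelium, endothelium, smooth muscle and ciliated cells were present in every library.

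let-7f was the most abundant member in all 15 libraries, and miR-98 the least. By the mean of the 4 group means, on the log2 scale, the order was mmu-let-7f-5p (18.92), mmu-let-7c-5p (17.93), mmu-let-7i-5p (17.76), mmu-let-7a-5p (17.61), mmu-let-7g-5p (16.21), mmu-let-7b-5p (16.00), mmu-let-7d-5p (15.36), mmu-let-7e-5p (14.41) and mmu-miR-98-5p (13.52). As equalized counts, let-7f ran from 440643 to 603463 per library, which placed it 9th to 13th among all miRNAs, and miR-98 from 8920 to 22363, which placed it 73rd to 98th. Most neighbours in this order were clearly apart. let-7f exceeded let-7c, let-7a exceeded let-7g, let-7b exceeded let-7d, let-7d exceeded let-7e and let-7e exceeded miR-98 in 15 of 15 libraries. let-7g exceeded let-7b in 14. let-7c, let-7i and let-7a did not keep an order: let-7c was above let-7i in 9 libraries, and let-7i above let-7a in 10. Together the 9 members held 5.87% ± 0.60 (SD, n = 3) of the summed count in WT PBS, 6.86% ± 0.59 (SD, n = 4) in WT bleomycin, 6.45% ± 0.34 (SD, n = 4) in R213G PBS and 7.38% ± 0.15 (SD, n = 4) in R213G bleomycin lungs. The log2 of their summed count was 20.34 ± 0.02, 20.39 ± 0.13, 20.46 ± 0.09 and 20.44 ± 0.08 (SD) in the same order. The mean share was thus higher after bleomycin in both genotypes while the sum itself differed by 0.05 in WT and -0.02 in R213G lungs. The WT shares overlapped, at 5.28% to 6.48% after PBS and 6.06% to 7.47% after bleomycin. The R213G shares, at 6.00% to 6.73% and 7.21% to 7.55%, did not.

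**Figure D1:**
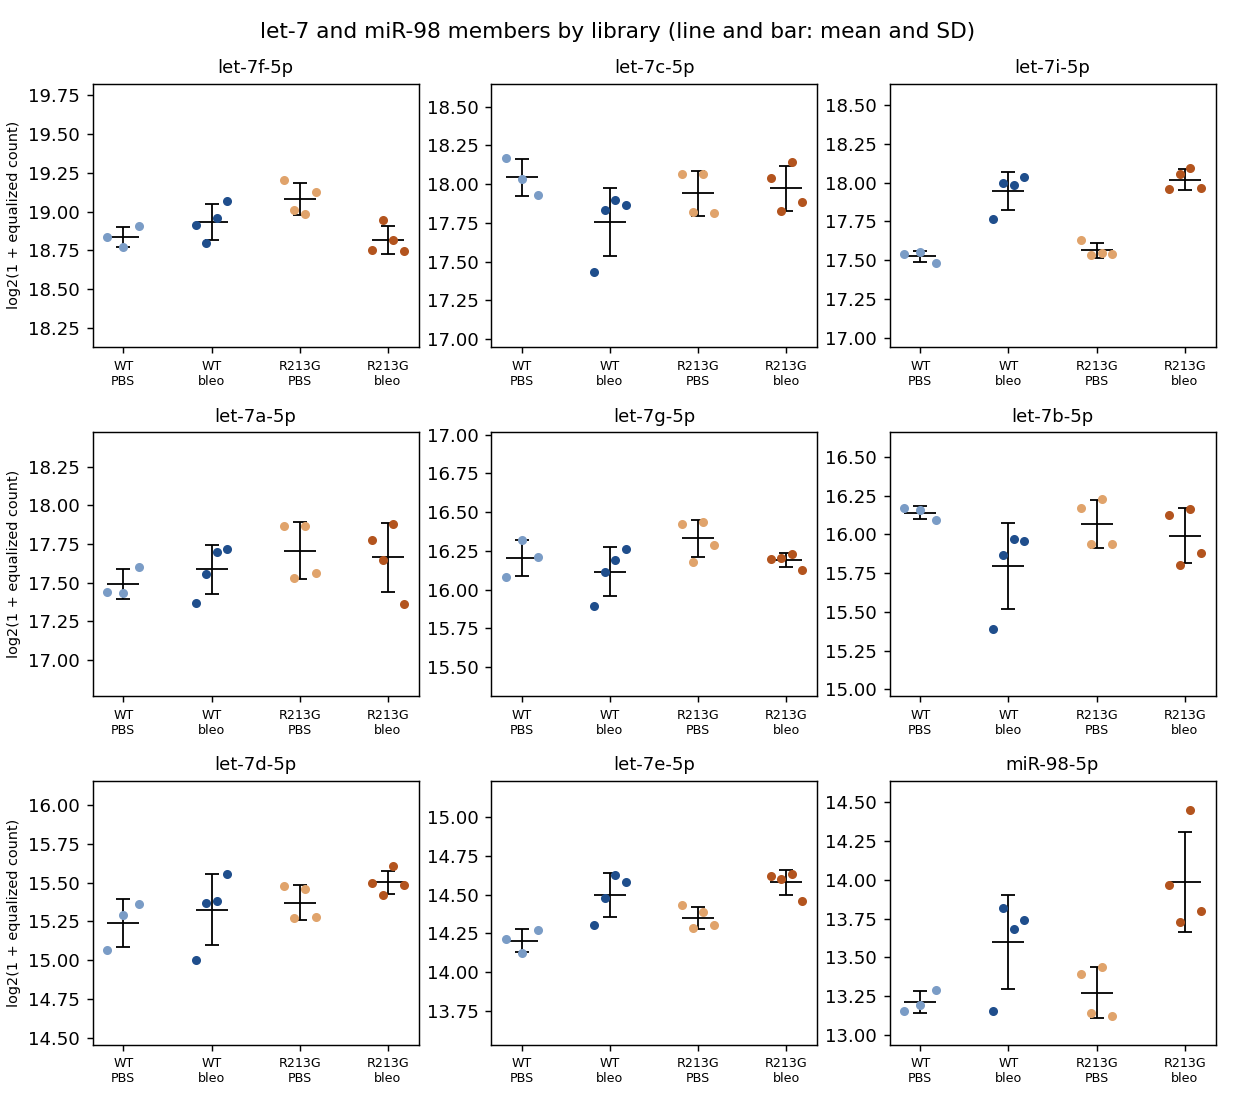
Level of each member in every library, as log2 of 1 plus the equalized count, in the 4 groups (WT PBS n = 3, the others n = 4); each point is a library, the long line the mean and the bar the SD, and all panels span the same log2 range. let-7i is higher in every bleomycin library than in any PBS library, let-7f is lower in each R213G bleomycin library than in any R213G PBS library, and WT bleomycin replicate 1 is the lowest of its group for let-7a, let-7b, let-7c, let-7d, let-7e, let-7g, let-7i and miR-98.

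In WT lungs, let-7i and let-7e were higher after bleomycin and the other 7 members did not pass the test. The test was limma, fitted over the 818 miRNAs and all 15 libraries, with p-values adjusted by Benjamini and Hochberg and called below 0.05. For 2 of 9 members called higher and 0 called lower, the background was 26.7% of all tested miRNAs called in this contrast, 16.4% higher and 10.3% lower. The median difference of the 9 members was 0.09 on the log2 scale, beside 0.05 over all tested miRNAs. In whole lung, fewer cells of a type and less RNA per cell cannot be told apart.

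let-7i, which in PBS lungs was close in level to let-7a, stood at 17.54, 17.55 and 17.48 in the 3 WT PBS libraries and at 17.76, 17.99, 17.99 and 18.04 after bleomycin. The groups did not overlap, and replicate 1 was the lowest after bleomycin. The rise was 0.42 ± 0.08 (SE, adjusted p = 0.00145), or 1.34-fold. let-7e, which is encoded beside miR-99b and miR-125a, stood at 14.21, 14.13 and 14.27 after PBS and at 14.31, 14.48, 14.63 and 14.58 after bleomycin. Here too the groups did not overlap, though replicate 1 after bleomycin lay only just above the highest PBS library. The rise was 0.29 ± 0.09 (SE, adjusted p = 0.0258), and without WT bleomycin replicate 3 or 4 or WT PBS replicate 1 or 2 the adjusted p was 0.0769, 0.0731, 0.0631 and 0.107. The call was also lost without the intensity trend of the fit (adjusted p = 0.0592) and with only the WT groups in it (adjusted p = 0.0961).

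The members with the most negative differences in WT were let-7b and let-7c, 2 miRNAs of neighbouring hairpins on chromosome 15. let-7b stood at 16.17, 16.16 and 16.09 after PBS and at 15.39, 15.87, 15.97 and 15.96 after bleomycin. let-7c stood at 18.17, 18.03 and 17.93 and at 17.43, 17.84, 17.90 and 17.87. In both the bleomycin libraries all lay below the PBS libraries, and replicate 1 lay far below the rest. The differences were -0.34 ± 0.14 (SE, adjusted p = 0.0741) for let-7b and -0.29 ± 0.12 (SE, adjusted p = 0.0961) for let-7c, and neither passed. Without replicate 1 they were -0.21 (adjusted p = 0.182) and -0.18 (adjusted p = 0.241). With let-7i and let-7e, 4 of 9 members had groups that did not overlap, against 32.3% of all tested miRNAs.

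miR-98 stood at 13.16, 13.19 and 13.29 in WT PBS lungs and at 13.15, 13.82, 13.68 and 13.74 after bleomycin. Replicate 1 lay just below the PBS libraries and the other 3 well above them. The difference was 0.39 ± 0.17 (SE, adjusted p = 0.107). Without that library it was 0.54 with an adjusted p of 0.0173, so 1 library decided this call. The differences of let-7f (0.10), let-7a (0.09), let-7d (0.09) and let-7g (-0.09) had overlapping groups and adjusted p-values from 0.473 to 0.635.

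In R213G lungs, miR-98, let-7i and let-7e were higher after bleomycin and let-7f was lower. That made 3 of 9 higher, 1 lower and 5 not called, where 42.1% of all tested miRNAs were called in this contrast, 22.2% higher and 19.8% lower. The median difference was 0.03, beside 0.05 over all tested miRNAs. The groups did not overlap for these 4 members, against 39.2% of all tested miRNAs.

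miR-98, the least abundant member, had the largest difference of the family in this genotype. It stood at 13.39, 13.14, 13.44 and 13.12 after PBS and at 13.97, 13.73, 14.45 and 13.80 after bleomycin. Replicate 3 was the highest in both groups. The rise was 0.71 ± 0.16 (SE, adjusted p = 0.00207), or 1.64-fold, and lay between 0.56 and 0.80 in the 24 alternatives, in all of which it was called. let-7i stood at 17.63, 17.53, 17.55 and 17.54 after PBS and at 17.96, 18.05, 18.09 and 17.96 after bleomycin, and the spread within each group was small beside the distance between them. It rose by 0.46 ± 0.08 (SE, adjusted p = 0.000289), or 1.37-fold, close in size to the WT rise. let-7e stood at 14.43, 14.28, 14.39 and 14.30 and at 14.62, 14.60, 14.64 and 14.46, a rise of 0.23 ± 0.09 (SE, adjusted p = 0.0406). The highest PBS and the lowest bleomycin library of let-7e nearly met, and its call was lost on leaving out any of R213G bleomycin replicates 1, 2 and 3 (adjusted p = 0.0877, 0.0717 and 0.0892) or R213G PBS replicates 2, 3 and 4 (0.102, 0.0568 and 0.0993), without a filter on low values (0.0721) and without the intensity trend (0.0795).

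let-7f, the most abundant member, stood at 19.20, 19.01, 18.98 and 19.13 in R213G PBS lungs and at 18.75, 18.94, 18.82 and 18.75 after bleomycin. All 4 bleomycin libraries lay below all 4 PBS libraries. It fell by 0.26 ± 0.08 on the log2 scale (SE, adjusted p = 0.0181), or 1.20-fold. The call was lost without R213G PBS replicate 1 (-0.22, adjusted p = 0.0623) or replicate 4 (-0.25, adjusted p = 0.0514), and with no filter on low values (-0.26, adjusted p = 0.0629). The 5 members not called in R213G lungs had differences between -0.14 (let-7g) and 0.13 (let-7d). let-7c, with -0.29 in WT, had 0.03 here, and let-7b, with -0.34 in WT, had -0.08. Whether these responses differ between genotypes is given with the interaction test.

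A share of the family's own sum does not depend on a factor applied to a whole library. By this measure let-7i made up 13.03% to 14.7% of the family in all 7 PBS libraries and 17.9% to 19.4% in all 8 bleomycin libraries. Its place in the order changed with it: let-7c was the second most abundant member in all 7 PBS libraries, and let-7i in all 4 WT bleomycin libraries and in R213G bleomycin replicates 2 and 4. Within a library, let-7i minus let-7c on the log2 scale was -0.52 ± 0.09 (SD, n = 3) in WT PBS, 0.19 ± 0.10 (SD, n = 4) in WT bleomycin, -0.38 ± 0.12 (SD, n = 4) in R213G PBS and 0.05 ± 0.14 (SD, n = 4) in R213G bleomycin lungs. let-7e shared the pattern, with 1.37% to 1.48% of the family in PBS and 1.63% to 1.77% in bleomycin libraries. These shares separate the treatments in both genotypes without the overlap that the let-7e levels nearly reach.

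For let-7f and let-7c the shares are given by genotype. let-7f made up 35.3% ± 1.20 (SD, n = 3) of the family in WT PBS and 36.4% ± 2.78 (SD, n = 4) in WT bleomycin lungs, but 38.6% ± 2.35 (SD, n = 4) and 32.5% ± 2.25 (SD, n = 4) in R213G lungs. let-7c made up 20.4% ± 1.70 and 16.1% ± 1.28 in WT, and 17.5% ± 0.95 and 18.1% ± 1.29 in R213G lungs. The lowest let-7c share in WT PBS lungs, 18.6%, was above the highest after bleomycin, 17.3%. The let-7f shares in R213G lungs were also apart, though the lowest after PBS and the highest after bleomycin nearly met. miR-98 remained a small part, at 0.638% to 0.756% in PBS libraries and 0.742% to 1.47% in bleomycin libraries, where the lowest bleomycin value is again WT replicate 1. The difference between genotypes in these shares was not tested.

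**Figure D2:**
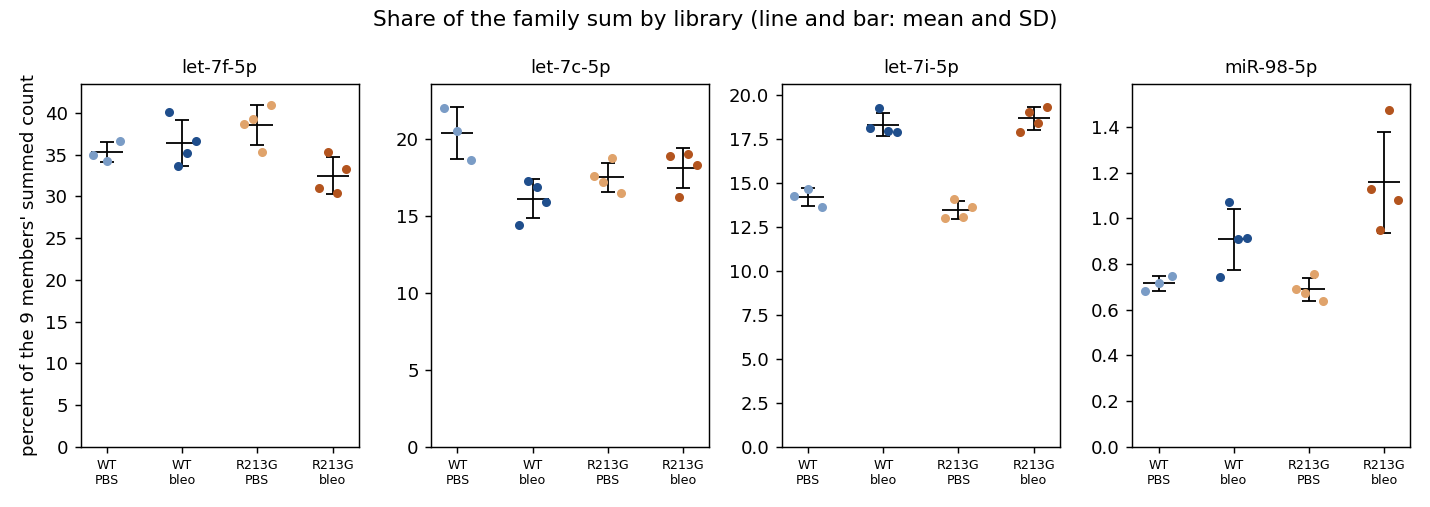
Share of let-7f, let-7c, let-7i and miR-98 in the summed equalized count of the 9 members, in percent, by library and group; points are libraries, lines means and bars SD. The let-7i share lies between 13.03% and 14.7% in PBS and between 17.9% and 19.4% in bleomycin libraries, whereas the let-7f shares overlap in WT.

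Which members were called depended on how libraries were scaled. Giving all libraries the same median over the tested miRNAs shifted every difference by -0.12 in WT and -0.13 in R213G lungs. Quantile normalization gives all libraries the same distribution. It shifted the differences of single miRNAs by a median of -0.15 in WT and -0.13 in R213G lungs. The median difference of all tested miRNAs was 0.05 in both genotypes as deposited. It was -0.07 and -0.08 with equal medians and -0.04 and -0.03 with quantile normalization. The split of all calls moved from 134 higher and 84 lower in WT to 110 and 121 with equal medians and 114 and 108 with quantile normalization. In R213G it moved from 182 and 162 to 148 and 199, and to 162 and 173.

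let-7i was called higher under all 3 scalings in both genotypes. Its differences in WT were 0.42 as deposited, 0.30 with equal medians (adjusted p = 0.0407) and 0.51 with quantile normalization (adjusted p = 4.68e-05). In R213G lungs they were 0.46, 0.32 (adjusted p = 0.0137) and 0.43 (adjusted p = 9.56e-05). After quantile normalization all 4 WT bleomycin libraries held the same let-7i value, 17.94, since let-7i had the same rank in each. The small adjusted p of let-7i in WT under that scaling thus rests partly on a spread that the scaling removed. miR-98 was called in R213G lungs under all 3, with 0.71, 0.58 (adjusted p = 0.00536) and 0.74 (adjusted p = 0.0008), and in WT under none, with 0.39, 0.27 and 0.38 (adjusted p from 0.0787 to 0.243). let-7e was called as deposited and with quantile normalization (0.38, adjusted p = 0.0200 in WT; 0.39, adjusted p = 0.00681 in R213G), but not with equal medians (0.18, adjusted p = 0.233; 0.10, adjusted p = 0.439).

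For the other members the scaling changed more. let-7f in R213G lungs was -0.40 (adjusted p = 0.0045) with equal medians and -0.02 (adjusted p = 0.887) with quantile normalization. After quantile normalization all 4 R213G PBS libraries held the same let-7f value, 18.97, since let-7f had the same rank in each. let-7c in WT passed under both other scalings, with -0.40 (adjusted p = 0.0406) and -0.35 (adjusted p = 0.0100), and let-7b with equal medians alone (-0.46, adjusted p = 0.0253, against -0.10, adjusted p = 0.491). let-7g passed in R213G lungs with equal medians (-0.28, adjusted p = 0.0422) and had the opposite sign with quantile normalization (0.11, adjusted p = 0.286).

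let-7d was called with quantile normalization alone. As deposited its differences were 0.09 ± 0.12 (SE, adjusted p = 0.629) in WT and 0.13 ± 0.11 (SE, adjusted p = 0.357) in R213G lungs, and with equal medians -0.03 (adjusted p = 0.856) and -0.003 (adjusted p = 0.984). With quantile normalization they were 0.44 (adjusted p = 0.00615) and 0.35 (adjusted p = 0.0091). Among the tested miRNAs of a library, let-7d stood 63rd to 67th in WT PBS and 51st to 60th in WT bleomycin lungs, and 58th to 64th and 49th to 55th in R213G lungs. Its level was 15.06, 15.29 and 15.36 in the WT PBS libraries. In WT bleomycin lungs replicate 1 lay below all of these, and the others stood at 15.37, 15.38 and 15.55. In R213G lungs it was 15.48, 15.27, 15.46 and 15.28 after PBS and 15.50, 15.42, 15.60 and 15.49 after bleomycin, which overlapped too. let-7d thus stood higher in rank after bleomycin while its levels overlapped. By the share of the family it overlapped too, with 2.56% to 3.15% in PBS and 2.68% to 3.47% in bleomycin libraries. The log2 family sum differed by -0.06 in WT and -0.15 in R213G lungs with equal medians and by 0.06 and 0.05 with quantile normalization.

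**Figure D3:**
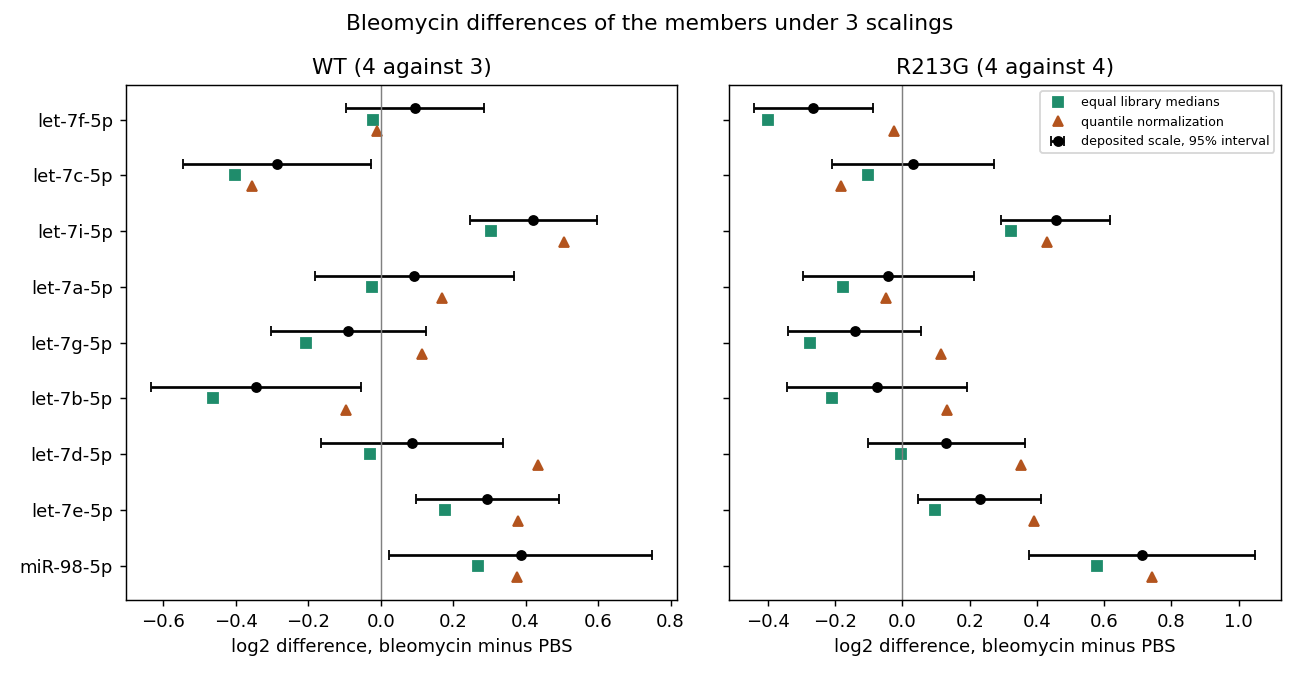
Log2 difference between bleomycin and PBS lungs for each member, in WT (left, 4 against 3 libraries) and R213G mice (right, 4 against 4), with the deposited scale (circle, bar 95% confidence interval), equal library medians (square) and quantile normalization (triangle). let-7i and, in R213G, miR-98 stay to the right of 0, whereas let-7f in R213G moves from -0.40 to -0.02 and let-7d in WT from -0.03 to 0.44.

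Members encoded side by side were compared within each library. On chromosome X, let-7f and miR-98 lie in the same intron, but let-7f also comes from chromosome 13. Within a library let-7f minus miR-98 was 5.81 ± 0.19 (SD, n = 4) in R213G PBS and 4.83 ± 0.35 (SD, n = 4) in R213G bleomycin lungs, with ranges of 5.55 to 6.00 and 4.37 to 5.22 that did not overlap. In WT lungs it was 5.62 ± 0.05 (SD, n = 3) and 5.33 ± 0.32 (SD, n = 4), and the ranges overlapped. let-7c minus let-7b had means of 1.96 in WT bleomycin, 1.87 in R213G PBS and 1.98 in R213G bleomycin lungs, and lay between 1.84 and 2.00 in WT PBS lungs. Over the 15 libraries the deviations of let-7b and let-7c from their group means correlated at r = 0.96, the highest of the 36 pairs, as a description of libraries that share a scale. The pairs of let-7f with miR-98, let-7c and let-7b were the lowest (r = -0.04, -0.03 and -0.02).

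The miR-99, miR-100 and miR-125 miRNAs are transcribed with let-7 genes from clusters that are known to be kept together across animals. Of the 5 on the list, 4 were lower and 1 was not called in each genotype, with a median difference of -0.42 in WT and -0.41 in R213G lungs. Among all tested miRNAs, 10.3% were called lower in WT and 19.8% in R213G lungs. In WT, miR-100-5p was -0.47 (adjusted p = 0.00117), miR-125b-5p -0.45 (adjusted p = 0.0024), miR-99a-5p -0.42 (adjusted p = 0.00854) and miR-125a-5p -0.38 (adjusted p = 0.00393), and in R213G lungs they were -0.50 (0.000289), -0.41 (0.00174), -0.30 (0.0243) and -0.41 (0.000926, all adjusted p). miR-99b-5p was -0.21 and -0.17 and did not pass. Under quantile normalization miR-125a-5p did not pass (-0.18, adjusted p = 0.0734 in WT; -0.08, adjusted p = 0.383 in R213G) and miR-99b-5p was 0.03 and 0.06, whereas with equal medians the same 4 passed in both genotypes.

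let-7e was also set against its neighbour miR-125a-5p within each library. let-7e minus miR-125a-5p was -3.27 ± 0.15 (SD, n = 3) in WT PBS and -2.60 ± 0.16 (SD, n = 4) in WT bleomycin lungs, with ranges of -3.44 to -3.17 and -2.82 to -2.43. In R213G lungs it was -3.01 ± 0.15 (SD, n = 4) and -2.37 ± 0.07 (SD, n = 4), with ranges of -3.21 to -2.88 and -2.48 to -2.31. The ranges did not overlap in either genotype, and a factor for a whole library leaves these differences as they are. let-7e minus miR-99b-5p was -2.61 ± 0.19 (SD, n = 3) and -2.10 ± 0.27 (SD, n = 4) in WT lungs. Those ranges, -2.78 to -2.41 and -2.50 to -1.95, overlapped. In R213G lungs it was -2.40 ± 0.16 and -2.01 ± 0.06 (SD, n = 4 each). The ranges there, -2.62 to -2.25 and -2.06 to -1.92, did not overlap. let-7a minus miR-100-5p was 3.75 ± 0.04 (SD, n = 3) and 4.32 ± 0.24 (SD, n = 4) in WT lungs, also without overlap, and 4.15 ± 0.25 and 4.60 ± 0.16 (SD, n = 4 each) in R213G lungs, where the ranges of 3.82 to 4.35 and 4.38 to 4.77 just failed to meet. let-7c minus miR-99a-5p was 4.54 ± 0.28 (SD, n = 3) and 4.67 ± 0.24 (SD, n = 4) in WT and 4.55 ± 0.33 and 4.88 ± 0.11 (SD, n = 4 each) in R213G lungs, with overlap in both. These differences were not tested.

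**Figure D4:**
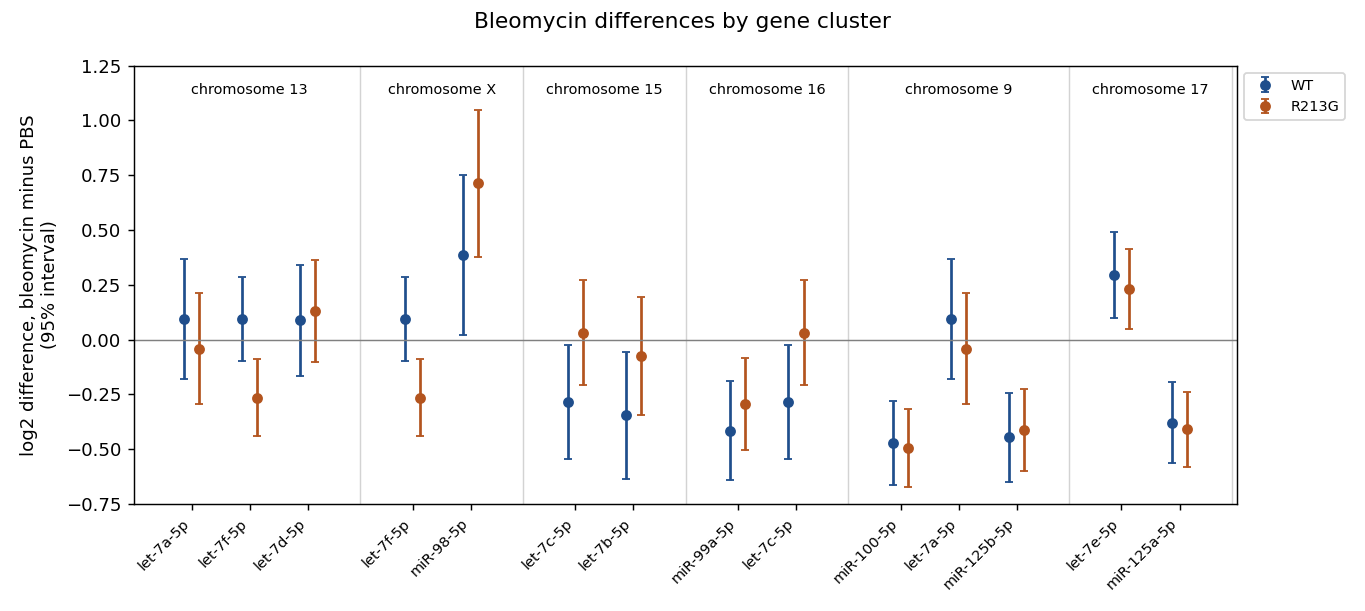
Log2 difference between bleomycin and PBS lungs with its 95% confidence interval for members and cluster neighbours, grouped by the chromosome of the gene cluster (WT 4 against 3 libraries, R213G 4 against 4); let-7a, let-7c and let-7f appear in each cluster that encodes them, with the same value. miR-100, miR-125b, miR-99a and miR-125a lie below 0 in both genotypes, while let-7e, encoded beside miR-125a, lies above it. The neighbour miR-99b-5p, which was not called in WT (-0.21) or R213G lungs (-0.17), is not drawn.

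The opposite strands of the same hairpins, the 3p miRNAs, are usually degraded and are listed separately. The background was 16.4% of all tested miRNAs called higher and 10.3% lower in WT, and 22.2% and 19.8% in R213G lungs. Of 12 opposite strands that were tested, 1 was higher and 2 lower in WT, and 4 were higher and 2 lower in R213G lungs. Their median differences were 0.18 and 0.11. let-7d-3p, the most abundant of them, stood at 14.17, 14.30 and 14.16 in WT PBS and at 13.90, 13.73, 14.11 and 13.81 after bleomycin, and at 14.15, 14.19, 14.22 and 14.11 against 13.95, 13.62, 13.82 and 13.62 in R213G lungs. Both pairs of groups were apart, and it fell by 0.32 ± 0.11 (SE, adjusted p = 0.0328) in WT and by 0.42 ± 0.10 (SE, adjusted p = 0.00331) in R213G lungs, and was called lower under all 3 scalings. let-7d-5p minus let-7d-3p was 1.03 ± 0.16 (SD, n = 3) in WT PBS and 1.44 ± 0.30 (SD, n = 4) in WT bleomycin lungs, with some overlap, and 1.20 ± 0.10 and 1.75 ± 0.14 (SD, n = 4 each) in R213G lungs, with ranges of 1.08 to 1.32 and 1.54 to 1.87.

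let-7b-3p was lower in WT (-0.42, adjusted p = 0.0394) and in R213G lungs (-0.68, adjusted p = 0.000833), while let-7b-5p did not pass in either; the let-7b-3p groups overlapped in WT only. let-7i-3p had a difference of 0.26 (adjusted p = 0.291) in WT and rose by 0.62 (adjusted p = 0.00624) in R213G lungs, though its R213G groups overlapped. let-7c-1-3p rose by 1.01 (adjusted p = 0.000605) in R213G lungs, from 6.00 ± 0.26 to 7.01 ± 0.38 (SD, n = 4 each), beside 0.03 for let-7c-5p. miR-98-3p rose in WT (0.54, adjusted p = 0.0172) and had 0.09 (adjusted p = 0.659) in R213G lungs, whereas miR-98-5p was called in R213G and not in WT lungs. The interaction was -0.46 (adjusted p = 0.611) for miR-98-3p and 0.33 (adjusted p = 0.738) for miR-98-5p. The remaining pair of calls in R213G lungs, let-7a-1-3p (0.77, adjusted p = 0.00645) and let-7c-2-3p (0.81, adjusted p = 0.00462), cannot be taken as separate results. The RefSeq sequence is the same for both:

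let-7a-1-3p and let-7c-2-3p: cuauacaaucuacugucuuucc

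In the table these strands differed by at most 0.12 in any library, though they were equal in 0 of 15.

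The comparisons of the genotypes address whether R213G EC-SOD changes the family with or without injury. In no member was a difference called: 0 of 9 after PBS, 0 of 9 after bleomycin and 0 of 9 in the interaction, where 0% of all tested miRNAs were called in each (limma, adjusted p; with an unadjusted p under 0.05 there were 44, 97 and 65 of 818, and 1 of 9 members in each). After PBS the members' differences, R213G minus WT, ran from -0.10 to 0.24 with a median of 0.13, beside 0.02 over all tested miRNAs. let-7f and let-7e had groups that did not overlap, 2 of 9 against 6.85% of all tested miRNAs. let-7f was 0.24 higher in R213G PBS lungs (95% confidence interval 0.05 to 0.43, adjusted p = 0.717) and let-7e 0.15 (-0.05 to 0.34, adjusted p = 0.864). After bleomycin the differences ran from -0.12 to 0.39 with a median of 0.08, beside -0.01, and 0 of 9 members had groups that did not overlap, against 5.5%. The largest was miR-98, 0.39 higher in R213G lungs (95% confidence interval 0.05 to 0.72, adjusted p = 0.387). It was 0.24 without WT bleomycin replicate 1 and 0.23 without R213G bleomycin replicate 3.

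In the interaction, which asks whether the bleomycin difference is not the same in both genotypes, let-7f had the lowest p of the members. Its difference was 0.10 in WT and -0.26 in R213G lungs, and the interaction was -0.36 (95% confidence interval -0.62 to -0.10, unadjusted p = 0.00978, adjusted p = 0.523). With quantile normalization it was -0.01. miR-98 had an interaction of 0.33 (-0.17 to 0.82, adjusted p = 0.738), let-7c of 0.32 (-0.04 to 0.67, adjusted p = 0.611) and let-7b of 0.27 (-0.13 to 0.66, adjusted p = 0.719). Without WT bleomycin replicate 1 these were 0.18, 0.21 and 0.13, and without R213G bleomycin replicate 3 that of miR-98 was 0.17. let-7i and let-7e, the members called in both genotypes, had 0.03 (-0.21 to 0.27) and -0.06 (-0.33 to 0.20). These intervals are as wide as many of the responses themselves, so neither a difference nor its absence was shown.

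The R213G libraries carry running tags in their column names, with replicates 1 and 3 of each group among the first 4 tags and replicates 2 and 4 among the last 4. The labels do not call this a batch. The tags of the WT libraries form a separate run, in which the bleomycin libraries come before the PBS libraries. Within each R213G set the bleomycin libraries also come before the PBS libraries. Tag order therefore cannot be told apart from genotype, nor from treatment in WT or within an R213G set. Within both treatments let-7a, let-7b, let-7c, let-7d, let-7e and miR-98 were higher in the first 4 tags without overlap, 6 of 9 members, beside 7.58% of all tested miRNAs higher and 8.56% lower in both treatments. The step was 0.32 in PBS and 0.32 in bleomycin lungs for let-7a, 0.26 and 0.30 for let-7b, and 0.28 and 0.45 for miR-98, whereas for let-7f it was 0.02 and -0.06 and for let-7i 0.05 and 0.02. Since each treatment has 2 libraries in either set, the bleomycin difference could be taken within the sets, though not apart from tag order there. It was 0.44 and 0.47 for let-7i, 0.80 and 0.63 for miR-98, 0.22 and 0.24 for let-7e, and -0.31 and -0.22 for let-7f, in the first and last tags. All 9 members had the same sign in both sets, as did 79.0% of all tested miRNAs.

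Markers of other cells also differed after bleomycin. On the deposited scale, 16.4% of all tested miRNAs were called higher and 10.3% lower in WT, and 22.2% and 19.8% in R213G lungs. Of 4 leukocyte miRNAs, 2 were higher in WT, miR-142a-3p (1.20) and miR-142a-5p (0.68), and in R213G lungs 1 was higher, miR-142a-3p (0.85), and 1 lower, miR-150-5p (-0.69). Their summed counts were 117871 to 130396 in WT PBS and 143012 to 186573 in WT bleomycin lungs, and 158142 to 177969 and 135733 to 164424 in R213G lungs. Of 4 red cell miRNAs, 3 were lower in WT and 2 in R213G lungs, with sums of 93295 to 225729 and 24594 to 34978 in WT and of 78180 to 230186 and 42948 to 152594 in R213G lungs. Of 5 epithelial miRNAs, 1 was lower in WT and 3 in R213G lungs, with sums of 302652 to 322185 and 260425 to 319483, and of 301750 to 339212 and 237072 to 310173. Of 2 smooth muscle miRNAs, 1 was lower in each genotype, with sums of 3096985 to 3653040 and 2526959 to 3146892 in WT and of 2994329 to 3570130 and 2342443 to 3061161 in R213G lungs. Of 2 endothelial miRNAs, 0 were called in WT and 1 was lower in R213G lungs, and of 3 ciliated cell miRNAs 1 was higher in each. Of 7 miRNAs listed for other organs, 1 was lower in WT (miR-133a-3p) and 3 in R213G lungs (miR-133a-3p, miR-1a-3p and miR-375-3p). Their sums were 47884 to 115356 and 30445 to 44773 in WT, and 52891 to 66545 and 23174 to 34287 in R213G lungs. miR-375-3p was listed for endocrine cells but is also a miRNA of epithelium, so it does not mark another organ alone. It is not part of the epithelial counts given here. In WT PBS lungs replicate 3 stood apart in striated muscle miRNAs. The 3 libraries were at 14.19, 13.88 and 16.24 for miR-133a-3p and at 9.49, 9.19 and 11.57 for miR-1a-3p. Several of these counts depended on the scaling. With quantile normalization 0 smooth muscle and 0 endothelial miRNAs were called in either genotype. That scaling gave miR-143-3p the same mean in PBS and bleomycin lungs of each genotype, so this smooth muscle miRNA could not be called. Of the epithelial miRNAs in R213G lungs, 1 was then lower (miR-200c-3p, -0.35, adjusted p = 0.0134) and 1 higher (miR-141-3p, 0.35, adjusted p = 0.0107). Of the leukocyte miRNAs in R213G lungs 2 were then higher and 0 lower, and of those of other organs 2 were lower. With equal medians 2 smooth muscle miRNAs were lower in WT, 4 epithelial miRNAs in R213G lungs, and 2 and 4 miRNAs of other organs in WT and R213G lungs. The red cell and ciliated cell counts were the same under all 3 scalings. All of these markers passed the filter, though the brain miRNA miR-124-3p was at 0 in at least 1 library. The part of these cell types in the family's differences was not tested.

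Outside the family, the miRNA whose values followed each member most closely over the 15 libraries was found among 809 tested miRNAs. The measure was Pearson's r, which takes in the contrast of treatments and the shared scale of the libraries. For let-7i it was miR-34a-5p, a p53 target (r = 0.95, but 0.35 for deviations from the group means). For miR-98 it was miR-20a-5p of the miR-17 cluster (0.97, and 0.95 for deviations). For let-7b and let-7c it was miR-145a-5p, a smooth muscle miRNA (0.84 and 0.87, and 0.74 and 0.80 for deviations). For let-7e it was miR-7a-5p (0.91 and 0.69), for let-7f the epithelial miR-429-3p (0.74 and 0.71), for let-7d miR-669a-3p (0.87 and 0.82), for let-7g miR-23a-3p (0.72 and 0.54) and for let-7a miR-32-3p (0.71 and 0.68). The log2 family sum was followed most closely by miR-32-3p (0.75), miR-25-3p (0.75), miR-185-5p (0.67), miR-190b-5p (0.63) and miR-669a-3p (0.63).

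The authors' deposited table gives q-values of the authors' own test of means and of a rank test. For R213G bleomycin against PBS, 2 of 9 members had a q-value of the test of means under 0.05 there, let-7i (0.00673) and let-7e (0.048), beside 11.4% of all miRNAs with a q-value, while let-7f (0.0613) and miR-98 (0.0797) lay just above. For WT bleomycin against PBS 0 of 9 members did, beside 0.795% of all miRNAs, and let-7i had the lowest q-value of the members (0.091). In the authors' deposited rank test 0 of 9 members had a q-value under 0.05 in either genotype, as did 0% of all miRNAs. let-7e, let-7f, let-7i and miR-98 shared the p-value of 0.0286 in R213G lungs, the smallest that the exact rank test allows for 4 against 4. In WT lungs let-7b, let-7c, let-7e and let-7i shared 0.0571, the smallest p-value that this test allows with the fewer WT PBS libraries. No member could thus have a rank p-value under 0.05 in WT, so the WT count of this test decides nothing.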

How the data were processed

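Small RNA libraries of 15 whole lungs were analysed from the authors' deposited table of log2 values per mature miRNA. From the values these were read as log2(1 + count), with counts brought to one library size; the table's name mentions RPKM, and no header states the unit. Per the submitters' processing notes Bowtie2 2.3.2, SAMtools 1.9 and edgeR were used; genome build and miRBase release were not given in the sources used here. The authors' deposited p-values and q-values are quoted as theirs. limma 3.58.1 under R 4.3.3 was run with a trend of variance on level, 4 group means and 5 contrasts, over 818 miRNAs that exceeded a count of 5 in 3 libraries or more, with Benjamini-Hochberg adjustment, and was tested on simulated data. The deposited values are not whole counts, so no count test was run. Alternatives covered scaling, filter (none, or a count of 50), pseudocount (10), trend, libraries in the fit, replicate block, tag order and leaving out each library. Named are all 9 members, their opposite strands, 5 cluster neighbours, marker miRNAs and the most alike miRNAs by correlation. Members and lists were chosen with earlier results of these data known. Sequences are RefSeq's (GRCm38.p6).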

Additional observations from a re-analysis of the deposited data

Results flagged for a closer look

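In 2 of 33 groups of 4 libraries, 1 library stood apart from the others by Dixon's criterion at the 95% level. Chance flags about 1 in 20 groups. let-7c-5p in WT bleomycin replicate 1 was at 17.43, with the other libraries of the group at 17.84 to 17.90. let-7i-5p in R213G PBS replicate 1 was at 17.63, with the others at 17.53 to 17.55.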

How the results depend on the processing

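let-7i kept its call in both genotypes under 24 of 24 alternatives, as did miR-98 in R213G lungs. let-7f in R213G lungs was called in 20 of 24, and let-7e in 17 (WT) and 14 (R213G). With the replicate block let-7e in R213G lungs had an adjusted p of 0.0526. The count of members called in WT, 2 as deposited, was 3 with equal medians (1 higher, 2 lower), 4 with quantile normalization, 1 without the intensity trend, 1 with only the groups compared in the fit, and 1 to 3 when leaving out 1 library. It was 1 without WT bleomycin replicate 3 or 4 or WT PBS replicate 1 or 2. In R213G lungs the count of 4 was 2 without a filter and 2 to 4 when leaving out 1 library, the 2 being without PBS replicate 4. The genotype comparisons and the interaction gave 0 under every alternative run; the interaction has no fit of only 2 groups. The log2 family sum in R213G lungs moved from -0.02 to -0.15 with equal medians. Of 1071 recomputed member differences, 28 changed sign, and in 0 of these was the member called. With equal medians these were let-7a (-0.024), let-7d (-0.030) and let-7f (-0.021) in WT and let-7c (-0.10) and let-7d (-0.0029) in R213G lungs. With quantile normalization they were let-7f (-0.011) and let-7g (0.11) in WT, let-7b (0.13), let-7c (-0.18) and let-7g (0.11) in R213G lungs, let-7f (0.074) and let-7i (-0.064) between genotypes after bleomycin, and let-7d (-0.082), let-7e (0.013), let-7g (0.00016) and let-7i (-0.076) in the interaction. Leaving out 1 library gave ranges across 0 for let-7d in WT (-0.0014 to 0.19), let-7a (-0.11 to 0.059) and let-7c (-0.025 to 0.081) in R213G lungs, let-7g between genotypes after bleomycin (-0.00067 to 0.12), and let-7d (-0.064 to 0.13), let-7g (-0.13 to 0.0082) and let-7i (-0.026 to 0.065) in the interaction. The cause was not tested. Replicate numbers did not pair the libraries: deviations of the 21 same-numbered pairs correlated at -0.145 to 0.262, with 9 over 0.1. With the replicate block 2 members were called in WT and 3 in R213G lungs. Depth is unknown, so precision rests on the spread between 3 or 4 libraries.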
